A study of Mus musculus with 4 samples.

Results

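Transcript levels of 33 receptor genes were described in mouse liver, and the levels differed from one another far more than they differed between wild type and Foxo1 mutant livers. The genes encode nuclear receptors outside the circadian clock, but they are not the whole family. A separate list holds 16 further nuclear receptors, and the ranks and shares of levels below leave those out. The 33 genes were taken from a list of names, and all 33 were found among the 37315 gene rows of the count files. Of these, 31 had enough reads to be tested, and Vdr and Pgr did not. Hnf4a and Rxra together made up 50.2 to 54.9% of the summed level of the 33 listed receptors in the 4 libraries. None of the 31 tested receptors differed between the groups at an adjusted p below 0.05 in edgeR, where 50 of all 14657 tested genes (0.341%) did, 0.280% higher and 0.0614% lower in the mutant.

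The study sequenced polyadenylated RNA from liver tissue of C57BL/6 mice aged 23 weeks. Both groups share strain, age and tissue, and they comprise 2 wild type libraries and 2 libraries from mice with a synonymous mutation of Foxo1, a change in the coding sequence that leaves the amino acid the same. Foxo1 encodes a forkhead transcription factor that insulin signalling keeps out of the nucleus. The sources used here do not give the position of the mutation, the sex of the mice or the feeding state. Whether the libraries of a group came from separate animals is not stated in the labels, so the p-values measure the spread between these libraries, which may be technical. Total counts ranged from 73551737 to 95908652 per library. Wild type 2 stood apart in the counts, with a chi-square per gene of 99.78 and 100.4 against mutant 1 and mutant 2, where wild type 1 gave 58.24 and 60.4 against the same libraries and 70.15 against wild type 2. The mutant libraries gave 57.48 between them. Without wild type 2 no receptor passed in edgeR and 17 of all genes did. All 10 hepatocyte markers on a list were tested, with summed CPM (counts scaled to the library size) of 101600 to 119600. CPM for Foxo1 itself were 44.0 and 54.8 in wild type and 33.6 and 53.4 in the mutant libraries (log2 fold change −0.18, edgeR adjusted p = 1.0), so the groups overlapped, and a synonymous change is not tested by the level of its gene.

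Nuclear receptors are transcription factors that bind DNA through paired zinc modules and, in most cases, change activity when a small lipid-soluble ligand occupies a pocket in the receptor. Many of them bind as heterodimers with a retinoid X receptor on paired copies of the hexamer AGGTCA, whereas steroid receptors pair with themselves and several orphan receptors bind alone. Without ligand some recruit corepressor complexes, and with ligand they recruit coactivators. In liver, members of the family regulate the metabolism of fatty acids, sterols, bile acids, glucose and foreign compounds.

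Promoter letters of the 3 most abundant receptors, and of Rxrb for its forkhead match, are shown so that the binding hexamer and the forkhead motif can be seen in place. For 30 of the 33 receptors, RefSeq (GRCm38.p6) gave at least 1 annotated start, with 50 windows in all. Each run below is the 250 bases upstream of an annotated start, 5′ to 3′ on the transcribed strand, in lower case. Capitals mark AGGTCA or GTAAACA (a core letter string of forkhead motifs) or the reverse complement of either. The pair of Hnf4a windows belongs to the distant and the proximal start, the Nr1i3 window to a receptor with 1 start, and the Rxra and Rxrb windows to starts that hold matches. They lie on the plus strand at chr2:163506607-163506856 and chr2:163546905-163547154 (Hnf4a), chr1:171213720-171213969 (Nr1i3), chr2:27709042-27709291 (Rxra) and chr17:34032100-34032349 (Rxrb).
Hnf4a, upstream start: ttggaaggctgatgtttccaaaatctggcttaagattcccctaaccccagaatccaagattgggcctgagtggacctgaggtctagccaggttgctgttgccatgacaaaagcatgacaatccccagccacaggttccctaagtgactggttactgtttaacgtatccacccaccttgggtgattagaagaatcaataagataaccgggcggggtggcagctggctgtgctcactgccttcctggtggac
Hnf4a, downstream start: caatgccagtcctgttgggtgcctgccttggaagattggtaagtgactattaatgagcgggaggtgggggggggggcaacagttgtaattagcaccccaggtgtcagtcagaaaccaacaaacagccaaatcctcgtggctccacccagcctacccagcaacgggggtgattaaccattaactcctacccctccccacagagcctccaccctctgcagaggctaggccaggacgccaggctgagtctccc
Nr1i3: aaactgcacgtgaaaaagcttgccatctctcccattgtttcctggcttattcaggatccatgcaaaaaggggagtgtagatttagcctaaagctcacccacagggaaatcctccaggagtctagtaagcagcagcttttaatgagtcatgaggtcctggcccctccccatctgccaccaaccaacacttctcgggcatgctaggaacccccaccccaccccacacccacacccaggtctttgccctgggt
Rxra: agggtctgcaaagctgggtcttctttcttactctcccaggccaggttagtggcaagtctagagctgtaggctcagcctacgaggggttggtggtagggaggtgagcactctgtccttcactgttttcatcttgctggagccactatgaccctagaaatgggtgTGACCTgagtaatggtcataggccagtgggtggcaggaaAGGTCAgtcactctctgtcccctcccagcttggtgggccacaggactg
Rxrb: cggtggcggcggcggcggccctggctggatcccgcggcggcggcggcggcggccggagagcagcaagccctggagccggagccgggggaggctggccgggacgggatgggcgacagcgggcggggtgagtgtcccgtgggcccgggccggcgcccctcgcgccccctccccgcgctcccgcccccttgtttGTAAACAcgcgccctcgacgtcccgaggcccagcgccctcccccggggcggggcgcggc

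Searched on both strands, AGGTCA was found in 8 of the 50 receptor windows (16.0%) and in 4607 of all 32851 promoter windows of the same length (14.02%). The forkhead string GTAAACA was found in 2 of 50 (4.0%) against 1040 of 32851 (3.17%). Both shares lie near those of all promoters. An AGGTCA match and a GTAAACA match can share at most an end letter, and a match is a description of letters and not a measured binding site. CG dinucleotides differed widely among the windows, with 3 and 4 in those of Hnf4a, 2 in that of Nr1i3 and 2 in that of Nr1i2, against 27 in that of Ppara and 40 in the other window of Rxra. The median was 8.5 over the receptor windows and 6.0 over all windows.

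To compare levels between receptors, TMM-scaled CPM were divided by the length of the merged exons in kilobases, and every level below is on this scale. Hnf4a, which drives much of the hepatocyte programme, was highest. Its gene lies on chromosome 2 from 163506808 to 163572910 (plus strand, mm10). The level of Hnf4a was 118 and 120 in wild type and 120 and 141 in mutant liver. Rxra, the obligate partner of many other receptors, came next (chromosome 2, 27676440 to 27762957, plus strand). Its level was 65.3 and 64.2 in wild type and 54.4 and 71.4 in the mutant libraries, so the wild type values lay inside the mutant range. No library of either gene reached the range of the receptor ranked after it.

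Nr1i3 (the constitutive androstane receptor, CAR), Nr1h3 (liver X receptor alpha) and Nr1i2 (the pregnane X receptor, PXR) formed a group with overlapping ranges. The levels of Nr1i3 were 29.6, 28.0, 30.3 and 27.7 in wild type 1, wild type 2, mutant 1 and mutant 2, an order kept for the values that follow. Those of Nr1h3 were 26.8, 28.8, 27.2 and 26.3. Those of Nr1i2 were 26.1, 26.0, 25.2 and 27.8. CAR and PXR sense foreign compounds, bilirubin and bile acids, and liver X receptor alpha binds oxysterols. Ppara, the fatty acid receptor that drives fatty acid oxidation in fasting, followed at 21.6, 13.6, 18.35 and 16.5, with both its extremes in the wild type libraries. Nr3c1, the glucocorticoid receptor, stood at 10.4, 11.2, 11.0 and 10.7. Nr5a2 (LRH-1), which takes part in bile acid and cholesterol metabolism, was at 9.76, 10.5, 10.5 and 11.4 (mean of 10.5), so these receptors closed the group of 8 with a mean level of at least 10.

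A further 16 receptors had mean levels between 1 and 10. Among them were Nr1h2 (liver X receptor beta, mean of 8.04), Rxrb (5.10), Thrb (4.92), Nr2f6 (4.11) and Nr2c1 (3.55). Thrb, the main thyroid hormone receptor of liver, varied least, at 4.85, 4.83, 5.01 and 4.97. Rara, Thra and Nr2f2 had means of 3.18, 3.16 and 2.94, with overlapping ranges. Esrra, a regulator of mitochondrial genes, had a mean of 2.75, and Pparg, the adipocyte regulator, 2.47. Then came Ppard (1.91), Rxrg (1.89), Nr3c2, the mineralocorticoid receptor (1.69), Nr1h5 (1.5), Nr6a1 (1.36) and Esr1, the estrogen receptor alpha (1.09). Within this stretch from Nr2f6 to Esr1, every neighbouring pair in the order had overlapping ranges over the 4 libraries.

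The remaining 9 receptors had mean levels below 1. Rarg, Nr2c2 and Rarb were at 0.959, 0.906 and 0.669, and Esrrg at 0.311. Esrrb (0.110), Nr2f1 (0.0597) and Hnf4g (0.0484) were tested on few reads, with 37 to 73, 17 to 31 and 3 to 21 counts per library. Vdr, the vitamin D receptor, had 0, 1, 2 and 9 counts, and Pgr, the progesterone receptor, 2, 4, 1 and 0. Most of these lie at or under a floor of 3 counts, which stands for 0.03151 to 0.04152 CPM per library and covers counting error only, so no fold is given for either. In bulk tissue, a low level cannot be told apart from a high level in a small share of the cells.

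Over the whole order, ranges failed to overlap for 8 of 32 neighbouring pairs. These were Hnf4a above Rxra, Rxra above Nr1i3, Nr1i2 above Ppara, Ppara above Nr3c1, Nr5a2 above Nr1h2, Nr1h2 above Rxrb, Thrb above Nr2f6 and Esrrg above Esrrb. The summed level of all 33 was 359.9, 357.2, 347.6 and 386.2. The 10 highest receptors took 88.5 to 89.8% of it in each library.

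**Figure D1:**
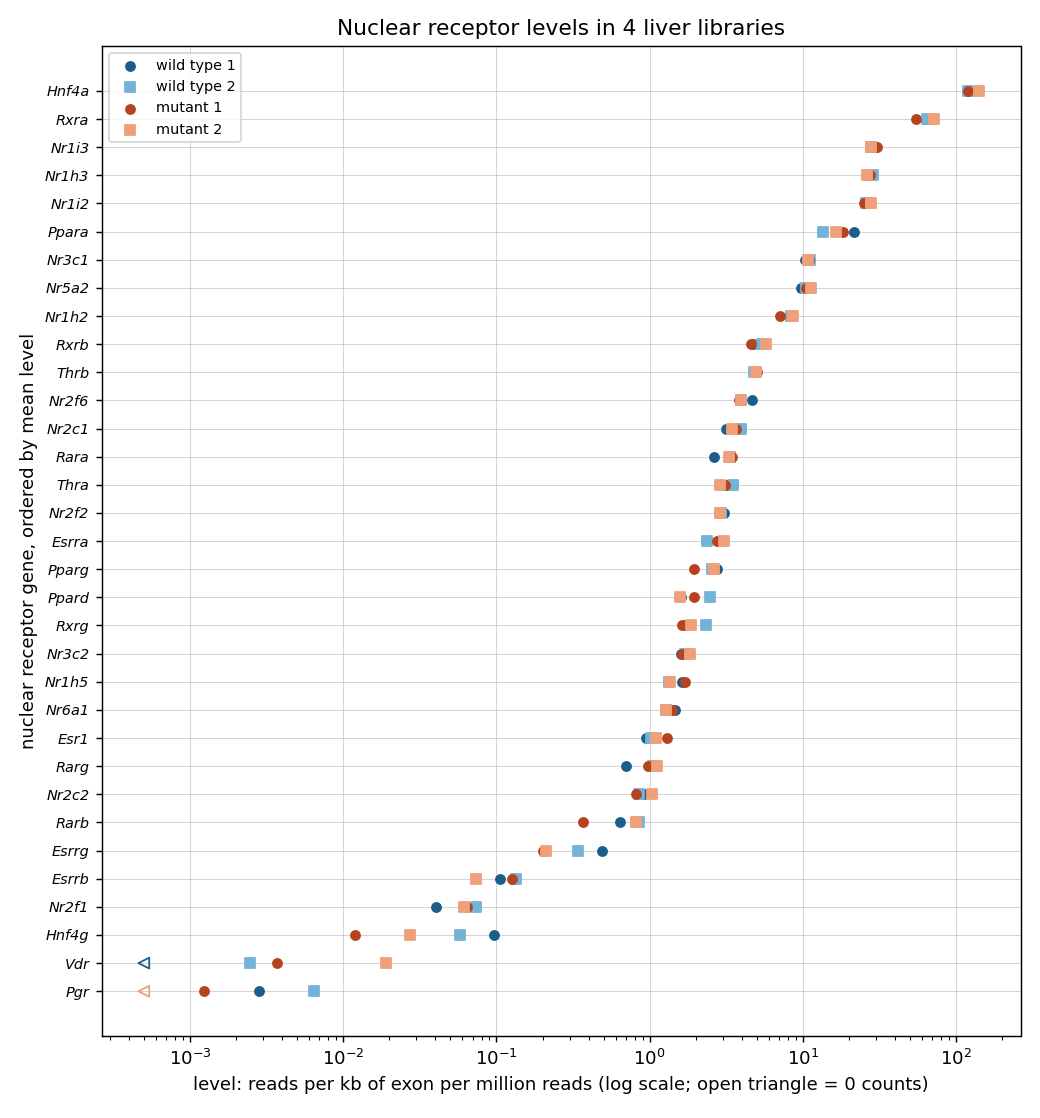
Level of each of the 33 receptors, as TMM-scaled CPM per kilobase of merged exons, with 1 point per library (2 wild type, 2 mutant) and receptors in order of mean level on a log axis. Hnf4a (118 to 141) and Rxra (54.4 to 71.4) stand above the other receptors. Points scatter most among the receptors with few reads, and those of some abundant receptors spread as well, such as Ppara (13.6 to 21.6).

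The plot of levels shows the steep start of the order, the long overlapping middle and the scatter among the receptors with few reads. Lengths affect the order for some genes. Opposite-strand genes cover 74.85% of the merged exons of Nr1i3 (Tomm40l, 3304 bp) and 54.37% of those of Nr2f6 (Ocel1, 1622 bp). With only the exon bases that no other gene in the files overlaps, the mean level of Nr1i3 was 114.8 in place of 28.9, second after Hnf4a, and that of Nr2f6 was 9.0 in place of 4.11. This length was chosen after the data were seen and keeps the same counts, and whether reads in the shared bases were counted for either gene is not stated in the sources at hand.

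Within families of close paralogs, 1 gene usually dominated. Rxra made up 89.2 to 91.1% of the summed level of the retinoid X receptors, Rxrb 6.55 to 7.57% and Rxrg 2.37 to 3.26%. Ppara held 72.9 to 83.3% of the peroxisome proliferator-activated receptors, with the lowest share in wild type 2, where Ppard held 13.4%. Hnf4a accounted for 99.92 to 99.99% of its pair with Hnf4g. Nr1h3 held 75.5 to 79.4% of the liver X receptors, and Nr3c1 85.5 to 87.1% of the pair of corticosteroid receptors. Balance was closer elsewhere. Thrb made up 58.1 to 63.3% of the thyroid hormone receptors, and Nr1i3 49.9 to 54.6% of its pair with Nr1i2. Both balances depended on the length used. With the longest transcript as length, the mean level was 5.95 for Thra and 5.87 for Thrb. Over the exon bases that no other gene in the files overlaps, it was 114.8 for Nr1i3 and 26.3 for Nr1i2. Among the retinoic acid receptors, Rara held 63.1 to 71.8%, Rarg 17.6 to 21.3% and Rarb 7.73 to 16.3%. In the COUP family, Nr2f6 held 56.8 to 60.0% and Nr2f2 39.5 to 42.3%. That order also depended on the length. With the longest transcript, the mean level was 5.52 for Nr2f6 and 6.00 for Nr2f2. Over the exon bases that no other gene in the files overlaps, it was 9.0 and 2.94.

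**Figure D2:**
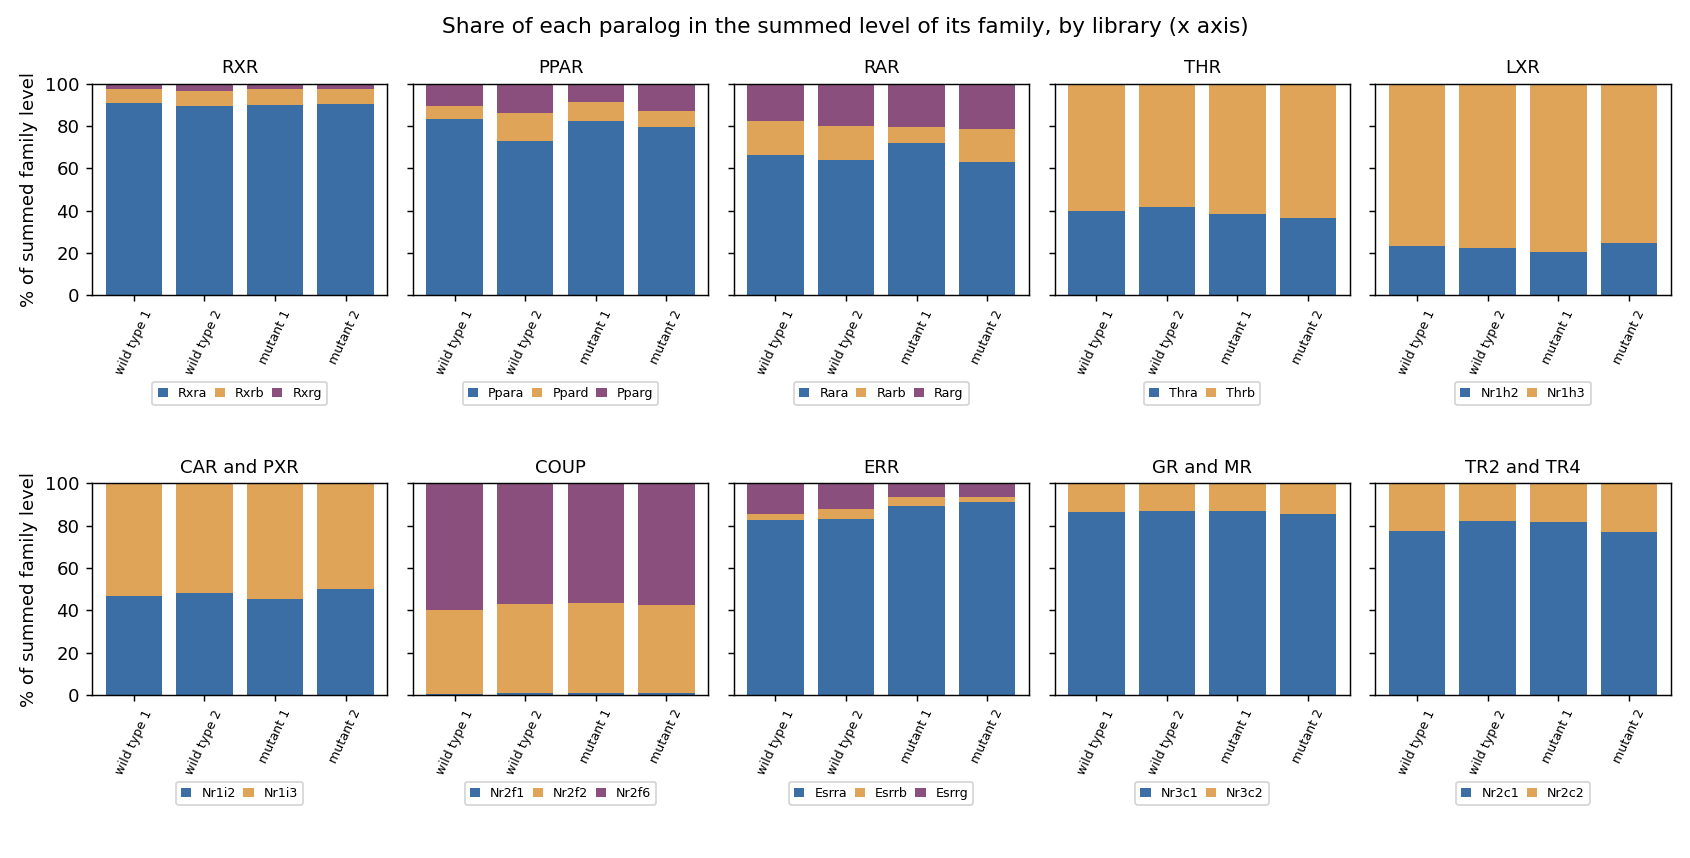
Share of each paralog in the summed level of its receptor family (percent, y axis) in each of the 4 libraries (x axis), for 10 of 11 families (the pair of Hnf4a and Hnf4g is not drawn), with 1 stacked bar per library. Rxra holds 89.2 to 91.1% of its family in every library, whereas Thrb and Thra, and Nr1i3 and Nr1i2, share theirs more evenly. Levels are per kilobase of merged exons. Over the exon bases that no other gene in the files overlaps, the mean level was 114.8 for Nr1i3 and 26.3 for Nr1i2.

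Shares of the groups did not overlap for members of 4 of the 11 families, and these differences were not tested. Among single genes, CPM of the groups did not overlap for 34.1% of all tested genes. A family holds several shares, so it can fail to overlap in more ways than a single gene. Esrrg held 14.3 and 11.99% of the estrogen-related receptors in wild type and 6.54 and 6.38% in mutant liver. Esrra held the bulk of the rest (82.6 to 91.4%). Thrb held 60.4 and 58.1% against 61.7 and 63.3%. Among the retinoic acid receptors, Rarg held 17.6 and 19.95% against 20.4 and 21.3%, and Rarb 16.1 and 16.3% against 7.73 and 15.5%. Hnf4g, on few reads, held 0.0813 and 0.0481% against 0.00997 and 0.0194%.

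Some receptors varied more between libraries of 1 group than between the groups. Of the 28 tested receptors with at least 1 CPM on average, 6 differed by more than 1.3-fold between the wild type libraries and 3 between the mutant libraries. Between the wild type libraries the ratio of the higher to the lower value was 1.59 for Ppara, 1.55 for Ppard, 1.496 for Rarg, 1.44 for Esrrg, 1.37 for Rxrg and 1.34 for Rarb. Ppara was higher in wild type 1, and Ppard was higher in wild type 2. Between the mutant libraries it was 2.20 for Rarb, 1.34 for Pparg and 1.31 for Rxra, each lower in mutant 1. By the same ratio, Thrb differed by 1.005 and 1.008, and Nr1i2 by 1.006 and 1.10.

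**Figure D3:**
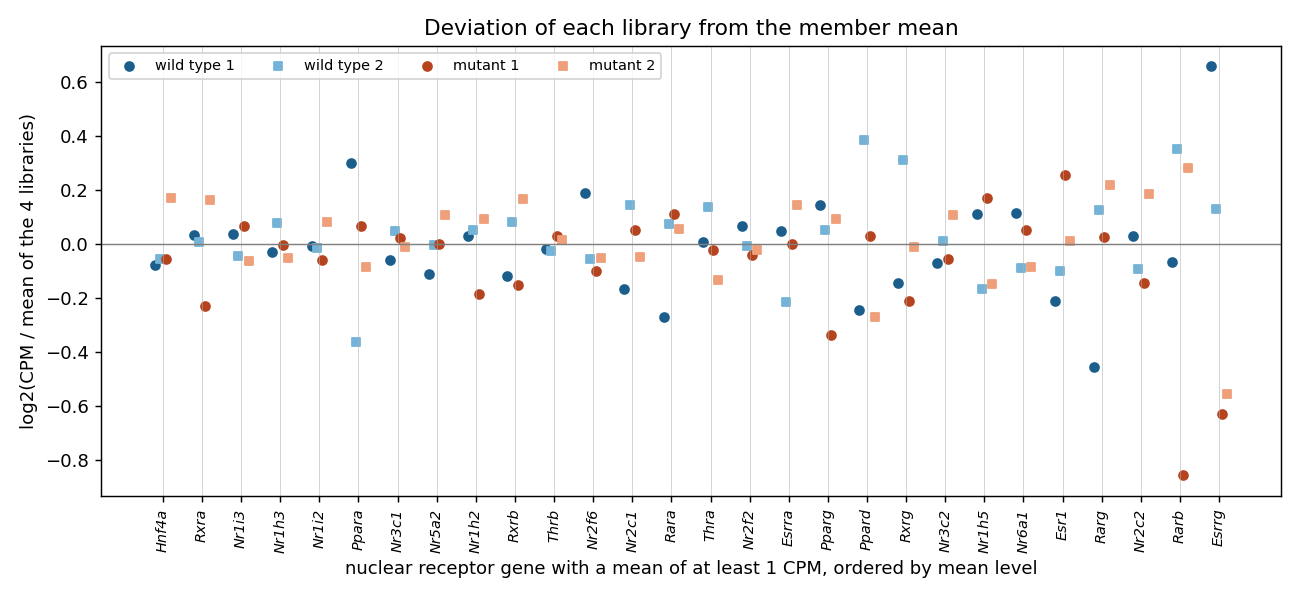
Deviation of each drawn receptor in each library from its mean over the 4 libraries, on the log2 scale. Drawn are the 28 of 31 tested receptors with at least 1 CPM on average, in order of level, with 1 mark per library. Wild type 1 and wild type 2 lie far apart for Ppara and Ppard, in opposite order, and Rarb is lowest in mutant 1.

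The comparison of mutant with wild type asks which receptors differ in transcript level with the synonymous mutation. None of the 31 tested receptors passed at an adjusted p below 0.05 in edgeR, none in DESeq2 (which gave an adjusted p for 29) and none in limma-voom, against 0.341% of all tested genes in edgeR (0.280% higher and 0.0614% lower in the mutant), 0.882% in DESeq2 and 0.0478% in limma-voom. At an unadjusted p below 0.05 there were 3 receptors in edgeR (Esrrg, Esr1 and Hnf4g), a share of 9.68% beside 6.19% of all genes. There was 1 in DESeq2 and there were 3 in limma-voom. The shares of all genes at that limit in DESeq2 and limma-voom are not given here, so these counts cannot be set against a background. Log2 fold changes of mutant over wild type were positive for 16 and negative for 15. The share of positive values was 51.6%, beside 49.7% of all tested genes. Their median was 0.01, beside −0.0013 over all tested genes. For 22 of the 31 the size of the log2 fold change was below 0.2.

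The intervals show how large a difference these libraries leave possible. The 95% confidence interval lay within a 2-fold difference in either direction for 26 receptors (83.9%, beside 74.6% of all genes) and within 1.5-fold for 22 (71.0%, beside 60.0%). It did not for Rarb, Esrrg, Esrrb, Nr2f1 and Hnf4g, all with mean levels below 1. The values of the groups did not overlap for 7 receptors (22.6%), beside 34.1% of all tested genes. Nr5a2, Thrb and Esr1 were higher in both mutant libraries, and Thra, Nr2f2, Esrrg and Hnf4g lower in both.

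**Figure D4:**
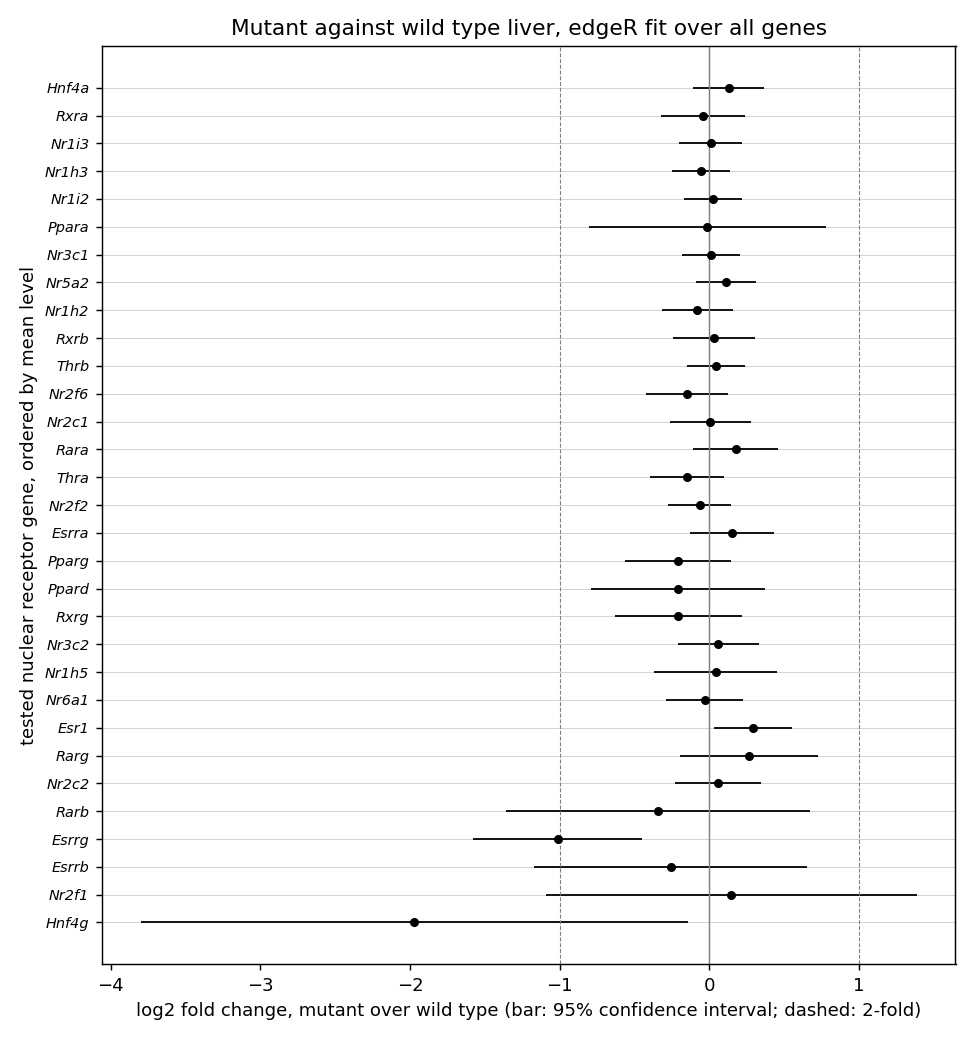
Log2 fold change of mutant over wild type for the 31 tested receptors (points) with 95% confidence intervals (bars) from edgeR, in order of level. Most intervals of the more abundant receptors are narrow and span 0, and those of Esrrg (−1.58 to −0.45), Esr1 (0.03 to 0.55) and Hnf4g (−3.80 to −0.15) do not, before adjustment for 14657 tests.

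The plot of fold changes orders the receptors by level. The widest intervals were those of Hnf4g, Nr2f1, Rarb and Esrrb, which have mean levels below 1. Widths did not follow the level throughout. Ppara, ranked 6, had a wide interval (−0.80 to 0.78), and Esr1, ranked 24, a narrow one (0.03 to 0.55). For the partners and abundant receptors, CPM of Hnf4a were 571.5, 580.6, 580.4 and 678.9 (log2 fold change 0.13, SE 0.11, interval −0.11 to 0.37, edgeR adjusted p = 0.998). Mutant 2 was the highest library and the other 3 lay close together, and the value was 0.0081 without mutant 2 and 0.24 without mutant 1. CPM of Rxra were 356.4, 350.7, 297.1 and 390.1 (−0.04, SE 0.13, interval −0.32 to 0.24). The mutant libraries lay on either side of both wild type libraries. Rxrb (0.03) and Rxrg (−0.21, interval −0.63 to 0.22) overlapped between the groups as well.

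Among the receptors of fatty acids, CPM of Ppara were 82.7, 52.1, 70.4 and 63.3 (log2 fold change −0.01, SE 0.27, interval −0.80 to 0.78). Both mutant libraries lay between the wild type libraries. Leaving out wild type 1 gave 0.36 and leaving out wild type 2 gave −0.31, with edgeR adjusted p of 0.691 and 0.864. For Ppard the CPM were 12.1, 18.7, 14.65 and 11.9 (−0.21, interval −0.79 to 0.37). For Pparg they were 8.07, 7.57, 5.78 and 7.77 (−0.21, interval −0.56 to 0.15), and the value was −0.0092 without mutant 1 and −0.44 without mutant 2. None of the family separated the groups.

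The retinoic acid receptors transduce the signal of retinoic acid, made from vitamin A. Rara had CPM of 11.5, 14.6, 14.98 and 14.4 (0.17, interval −0.11 to 0.46). Its value was 0.012 without wild type 1, the lowest library, and 0.36 without wild type 2. Rarg had 2.98, 4.46, 4.16 and 4.76 (0.26, interval −0.20 to 0.73). Wild type 1 was the lowest library here too, and the value was 0.00065 without it and 0.58 without wild type 2. Rarb had 3.36, 4.50, 1.94 and 4.28 (−0.34, interval −1.36 to 0.68), and mutant 1 alone was low. Without mutant 1 the log2 fold change of Rarb was 0.12, and without mutant 2 it was −1.02. Exons of Top2b on the other strand overlap 34.06% of the exons of Rarb, and Top2b had CPM of 52.9 to 58.9 (0.06).

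The thyroid hormone receptors gave intervals within 1.5-fold. Thrb had CPM of 35.9, 35.75, 37.1 and 36.8 (0.04, SE 0.09, interval −0.15 to 0.24). Its mutant values were both higher, by a small margin beside the model's standard error. Thra had 14.7, 16.0, 14.4 and 13.3 (−0.15, interval −0.40 to 0.10). The end of Thra overlaps that of Nr1d1, a clock receptor on the opposite strand, by 263 bp, which is 5.7% of the exons of Thra. CPM of Nr1d1 were 56.9, 44.9, 27.6 and 28.7, and it fell by 0.86 on the log2 scale (SE 0.11, edgeR adjusted p = 0.0109). That call was lost without wild type 1, mutant 1 or mutant 2, with adjusted p of 0.0225 to 0.213 over the 4 fits that left out a library. The share of Thra reads that come from Nr1d1 was not tested.

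The oxysterol and xenobiotic receptors on the list, and Nr1h5, overlapped between the groups without exception. The bile acid receptor itself is not on the list of members. For Nr1h3 the log2 fold change was −0.05 (interval −0.25 to 0.14) and for Nr1h2 −0.08 (−0.32 to 0.16). For Nr1h5, a receptor related to the bile acid receptor, it was 0.04 (−0.37 to 0.45). For Nr1i3 it was 0.01 (−0.20 to 0.22) and for Nr1i2 0.02 (−0.17 to 0.22). Tomm40l, the opposite-strand partner of Nr1i3, had CPM of 4.21 to 4.93 beside 122.1 to 133.5 for Nr1i3.

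Among the steroid receptors, Nr3c1 gave 0.01 (interval −0.18 to 0.20) and Nr3c2 0.06 (−0.21 to 0.33). CPM of Esr1 were 12.9, 13.95, 17.85 and 15.1, so both mutant libraries were higher than both wild type libraries. The gene lies on chromosome 10 from 4611593 to 5005614 (plus strand). Its log2 fold change was 0.29 (SE 0.12, interval 0.03 to 0.55, unadjusted p = 0.0302, edgeR adjusted p = 0.701). Leaving out 1 library at a time gave 0.17 to 0.41. The ratio of the means corresponds to 1.23-fold, with an interval of 1.02 to 1.47, and it did not pass the adjustment.

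The estrogen-related receptors bind as orphans and regulate mitochondrial and oxidative genes, and Esrrg had the smallest p of the set. CPM of Esrrg were 3.05 and 2.12 in wild type and 1.25 and 1.32 in the mutant libraries, from counts of 253, 153, 119 and 110. Both mutant libraries were lower than both wild type libraries. The gene spans 187608791 to 188214885 on chromosome 1 (plus strand). Its log2 fold change was −1.01 (SE 0.26, interval −1.58 to −0.45, unadjusted p = 0.00199, edgeR adjusted p = 0.207), which is 0.496 of the wild type level. Adjusted p was 0.136 in DESeq2 and 0.413 in limma-voom. With no filter on low counts it was 0.0196 in edgeR, the 1 setting of 12 with a call, and the range over all settings was 0.0196 to 0.843. Leaving out 1 library at a time gave log2 fold changes of −1.25 to −0.72. Esrra had 12.5, 10.4, 12.1 and 13.3 CPM (0.15, interval −0.13 to 0.43, and 0.025 to 0.29 with 1 library left out), and Esrrb, with 0.442 to 0.817 CPM, gave −0.26 (interval −1.17 to 0.65).

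Of the remaining receptors, Hnf4g had 21, 11, 3 and 6 counts in the 4 libraries. Both mutant values were lower, and the fitted log2 fold change was −1.97 (SE 0.84, interval −3.80 to −0.15, unadjusted p = 0.0364, edgeR adjusted p = 0.750). With 3 counts in mutant 1 the size of that change depends on very few reads, and it ran from −2.64 to −1.49 with 1 library left out. Nr5a2 had CPM of 57.5, 62.0, 62.1 and 67.0 (0.11, interval −0.09 to 0.31, and 0.053 to 0.17 with 1 library left out), with wild type 2 and mutant 1 nearly equal. The COUP family, repressors that often compete for the sites of other receptors, gave −0.06 for Nr2f2 (interval −0.27 to 0.15), −0.15 for Nr2f6 (−0.42 to 0.12, and −0.021 without wild type 1) and 0.15 for Nr2f1 (−1.09 to 1.39). Ocel1, which overlaps Nr2f6, had CPM of 12.1 to 13.7 (0.09). Nr2c1 and Nr2c2 gave 0.01 and 0.06, and Nr6a1 −0.03. The 30.73% of Nr2c2 exons shared with Mrps25 on the other strand hold reads of unknown origin, and Mrps25 had CPM of 6.24 to 8.15 (−0.23).

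Other genes of the receptor pathways were examined from lists drawn up by role, with earlier results of these data known. Counts of calls in these lists and in the marker lists therefore describe the lists and are no independent support. Among 16 further nuclear receptors, 9 were tested and 1 passed in edgeR (beside 0.341% of all genes), Nr1d1, which fell as given above. The median of these 9 was 0.14, and 0.017 to 0.12 with 1 library left out. Of the 16 coactivators none passed in edgeR, DESeq2 or limma-voom, none had an unadjusted p below 0.05, and the median log2 fold change was −0.03 (−0.15 to 0.059 with 1 library left out). The abundant Kat2b and Ncoa4 gave −0.0023 (SE 0.09) and 0.15 (SE 0.09). Of the 10 corepressors none passed in any of the 3 tools or had an unadjusted p below 0.05, with a median of −0.04 (−0.094 to 0.067), and Ncor1 and Tbl1x gave −0.02 and −0.08.

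Enzymes that make or clear receptor ligands included 2 genes past the threshold, which 0.341% of all genes passed in edgeR. Rdh16, a retinol dehydrogenase, had CPM of 74.3, 70.7, 51.9 and 49.9 and fell by 0.51 on the log2 scale (SE 0.09, edgeR adjusted p = 0.0352). It was the 1 of 14 tested genes of retinoid metabolism to pass. Hsd17b6, an oxidoreductase of androgens, had 83.6, 76.4, 39.9 and 45.4 and fell by 0.91 (SE 0.10, edgeR adjusted p = 0.00228), the 1 of 13 of steroid metabolism. The groups did not overlap for either gene. The call of Rdh16 was lost in each of the 4 fits that left out a library (edgeR adjusted p of 0.192 to 0.394), and that of Hsd17b6 without wild type 1 or mutant 1 (0.0655 and 0.0733). None of the 7 tested genes of thyroid hormone supply and none of the 6 of vitamin D and oxysterol metabolism passed in any of the 3 tools or had an unadjusted p below 0.05. Ttr gave −0.13, Slco1b2 0.06, Gc 0.02 and Cyp27a1 −0.0058.

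Known targets of the receptors were counted by list. Of 27 tested targets of PPAR alpha, 24 had negative and 3 positive log2 fold changes (beside 49.7% positive over all genes), with a median of −0.24. None passed in edgeR with all libraries, and that absence depended on which libraries entered the fit. An unadjusted p below 0.05 was reached by 9 of the 27, beside 6.19% of all genes, and 4 passed in DESeq2, beside 0.882%, and none in limma-voom. The receptor itself gave −0.01, as above. Leaving out 1 library at a time moved the median of the list from −0.28 to −0.15.

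Among 25 tested targets of CAR and PXR, Alas1 rose, with CPM of 130.5, 131.1, 233.5 and 265.7 (log2 fold change 0.93, SE 0.10, edgeR adjusted p = 0.00228). Alas1 encodes the first and rate-limiting enzyme of heme synthesis in liver. Its call was lost in each fit that left out a library, with adjusted p of 0.056 to 0.0809. Of the list, 9 were positive and 16 negative, with a median of −0.11 (−0.23 to −0.070 with 1 library left out). An unadjusted p below 0.05 was reached by 8 of the 25, beside 6.19% of all genes, and 2 passed in DESeq2 (beside 0.882%) and 1 in limma-voom (beside 0.0478%). The receptors Nr1i3 and Nr1i2 differed by 0.01 and 0.02.

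In the 16 targets of the liver X receptors, 11 were negative and none passed in edgeR. An unadjusted p below 0.05 was reached by 3 (beside 6.19% of all genes), and 1 passed in DESeq2 (beside 0.882%) and none in limma-voom. The absence of an edgeR call depended on which libraries entered the fit. Scd1, the fatty acid desaturase, had mean CPM of 5373 ± 1924 in wild type and 2430 ± 171.5 in mutant (SD, n = 2; −1.15, SE 0.29, edgeR adjusted p = 0.589), and the spread between its wild type libraries was wide. Mlxipl gave −0.19. The median of the list was −0.15 and ranged from −0.25 to 0.06 when 1 library was left out. Of 9 tested targets of thyroid hormone, none passed in edgeR, and 3 had an unadjusted p below 0.05 (beside 6.19% of all genes). In DESeq2 2 passed (beside 0.882%), and none in limma-voom. Of the 9, 6 were negative, with a median of −0.30. That median rested on single libraries, since it was −0.027 without wild type 2 and −0.031 without mutant 2. Fasn gave −0.33 and Me1 −0.47 (edgeR adjusted p = 0.0851).

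The other target lists had medians between −0.09 and 0.08. None of 7 tested retinoic acid targets (median −0.09; Dhrs3 −0.09, Tgm2 −0.10), 18 glucocorticoid targets (0.08; Pck1 −0.07, Tat 0.08), 19 targets of HNF4 alpha (−0.01; Apoa1 −0.08, Apob 0.08), 10 of LRH-1 and the bile acid receptor (−0.03; Abcb11 −0.10, Slc10a1 −0.0090) and 12 of the estrogen-related receptors (−0.06; Atp5b −0.03, Acadm −0.18) passed in edgeR. DESeq2 called 1 glucocorticoid target and 1 target of HNF4 alpha (beside 0.882% of all genes), and limma-voom none in these lists. At an unadjusted p below 0.05 there were 2 glucocorticoid targets, 1 of HNF4 alpha and 1 of the estrogen-related receptors, beside 6.19% of all genes. The median of the retinoic acid targets was 0.27 without mutant 1 and −0.21 without mutant 2, and that of the glucocorticoid targets was 0.18 and −0.074 in the same fits. For the glucocorticoid targets, the absence of an edgeR call depended on which libraries entered the fit. Some targets appear in more than 1 list, and the lists are not independent.

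**Figure D5:**
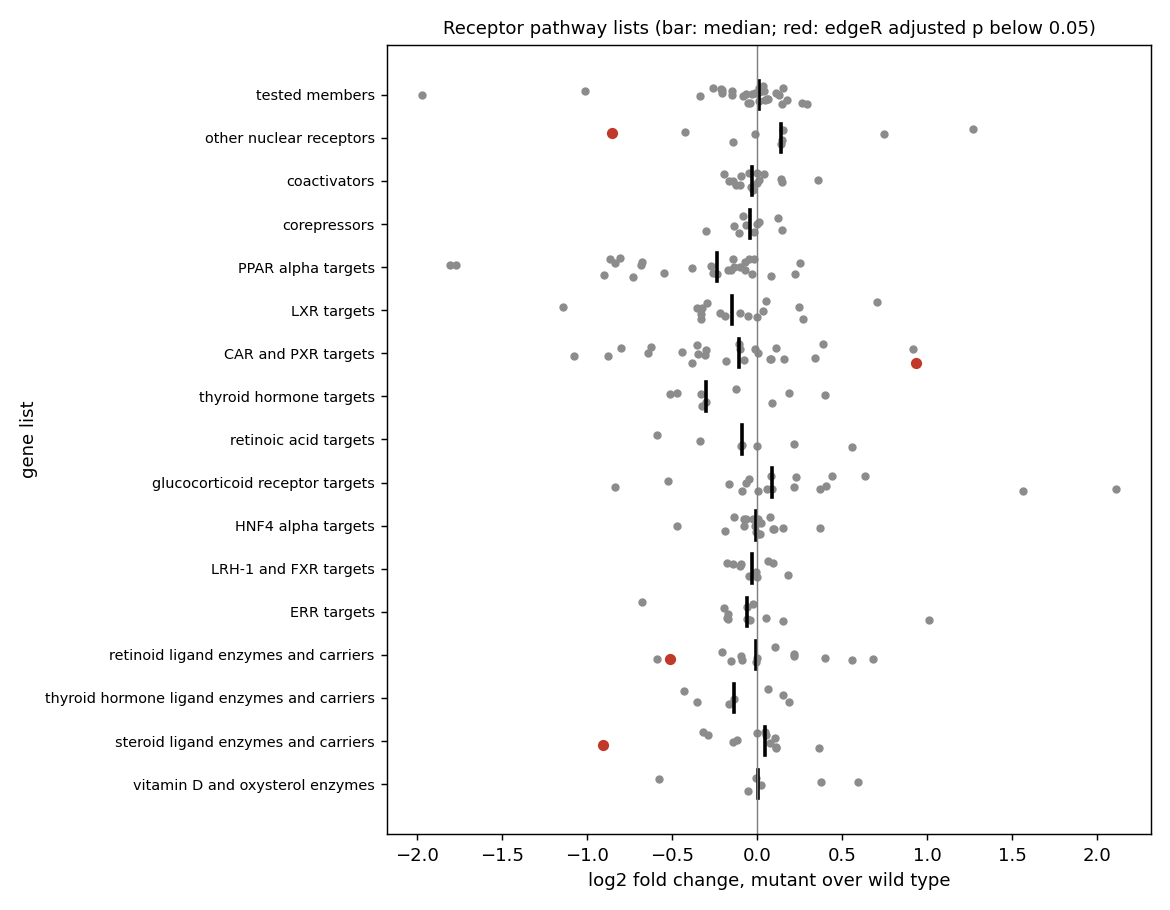
Log2 fold change of mutant over wild type for every tested gene of each pathway list (1 point per gene), with the median of the list as a bar and genes with an edgeR adjusted p below 0.05 in red. The medians range from −0.30 (thyroid hormone targets) to 0.14 (other nuclear receptors), which were −0.027 and 0.017 without wild type 2, and the red points are Nr1d1, Alas1, Rdh16 and Hsd17b6.

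The plot of pathway lists shows that most points of coactivators and corepressors lie close to 0, whereas the points of target lists spread more widely. Cell type markers moved with the groups. All 10 Kupffer cell markers were higher in the mutant livers and 6 rose in edgeR, beside 0.280% of all genes, with summed CPM of 272.5 and 290.0 in wild type and 414.5 and 473.0 in mutant libraries. All 10 blood cell markers were positive and 2, Ptprc and Hbb-bt, rose, with sums of 245.9 and 273.5 against 309.0 and 346.4. DESeq2 called 9 of the Kupffer cell and 2 of the blood cell markers (beside 0.882% of all genes), and limma-voom none of either. In each of the 4 fits that left out a library, edgeR called none of these 20 markers. None of the tested hepatocyte, sinusoidal endothelial, stellate and cholangiocyte markers passed. The part of the shift in Kupffer and blood cell markers in the receptor values was not tested. In bulk tissue, more cells of a type and more RNA per cell cannot be told apart.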

How the data were processed

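RNA sequencing of liver gave 1 file of read counts per library, 4 in all, with no columns left unused. The deposited values are raw counts per Ensembl gene, neither normalised nor pooled by the authors. The submitters' processing notes name TopHat2 2.1.1, HTSeq 0.6.0 and the build mm10, applied to reads from unstranded TruSeq libraries, per the labels' protocols. The counting mode, the strand setting and the release of the annotation were not stated in the sources at hand, so reads in bases shared with an opposite-strand gene cannot be assigned.

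Symbols, coordinates and exon lengths came from GENCODE for mm10 (35449 of 37315 identifiers matched, 95.0%), and promoter letters from RefSeq. Groups followed the labels. Genes kept by filterByExpr (minimum count 10; 14657 of 23104 with a count above 0) received TMM factors between 0.983 and 1.02 and entered edgeR 4.0.16 in R 4.3.3 (glmQLFit, robust, glmQLFTest, two-sided) with the group as the only term and Benjamini-Hochberg adjustment over all tested genes. Standard errors are the log2 fold change over the root of F. The coefficient of variation that edgeR fitted between libraries was 13.1%, with a median SE of 0.15. This variation may be technical, since the labels do not state separate animals. Levels are TMM-scaled CPM per kilobase of merged exons. Every pair of libraries differed beyond sampling noise. The labels state no pairing of libraries by replicate number. Deviations of same-numbered libraries had a correlation of −0.0072, which cannot settle whether they were paired by design.

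The members and all lists were chosen with earlier results of these data known. The listed symbols Prmt1 and Tf were not matched. All receptors were named, and in each other list up to 4 genes past the threshold or, with none, the pair of highest mean CPM, as well as Foxo1 and genes whose exons overlap a receptor. Not every gene named by this rule is reported here. Alternatives were other scalings, filters, exon lengths, DESeq2 1.42.0, limma-voom 3.58.1, no robust estimation, a replicate block, an adjusted p of 0.1 and leaving out each library.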

Additional observations from a re-analysis of the deposited data

How the results depend on the processing

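The count of all genes past the threshold was 50 and depended on the setting. It was 258 with no filter on low counts, 24 with a filter of 1 CPM in 2 libraries, 109 in DESeq2, 7 in limma-voom, 8 without robust estimation, 111 with the replicate number as a block, and 3 to 17 when 1 library was left out (3 without mutant 1). The number of receptors past the threshold was 0 in every setting run except no filter, where it was 1 (Esrrg). The replicate block called no receptor. The median over the tested receptors stayed between −0.03 and 0.02. Receptors with a mean level of at least 10 numbered 8, and 9 with the longest transcript as length. The log2 fold change of Ppara turned to 0.022 in limma-voom and with the replicate block. For 18 of 31 receptors the sign turned under at least 1 setting, and their sizes were at most 0.34. With 1 library left out at a time, log2 fold changes that turned ranged as follows for 18 receptors, namely Rxra −0.25 to 0.14, Nr1i3 −0.058 to 0.069, Nr1h3 −0.11 to 0.0012, Nr1i2 −0.050 to 0.093, Ppara −0.31 to 0.36, Nr3c1 −0.042 to 0.065, Nr1h2 −0.23 to 0.050, Rxrb −0.14 to 0.18, Nr2c1 −0.14 to 0.17, Ppard −0.49 to 0.14, Rxrg −0.42 to 0.034, Nr3c2 −0.026 to 0.14, Nr1h5 −0.13 to 0.19, Nr6a1 −0.13 to 0.075, Nr2c2 −0.12 to 0.21, Rarb −1.02 to 0.12, Esrrb −0.71 to 0.076, Nr2f1 −0.23 to 0.63. The call of Nr1d1 was also lost in limma-voom (adjusted p = 0.0640) and without robust edgeR estimation (0.0586), and that of Rdh16 with the 1 CPM filter (0.0541), in limma-voom (0.109) and without robust edgeR estimation (0.103). The causes were not tested. Fits without 1 library take the spread of the group left with a single library from the other group. Depth limits Esrrb, Nr2f1, Hnf4g, Vdr and Pgr.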
